A study of Homo sapiens with 8 samples.

Results

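EOMES and 8 genes that cytotoxic lymphocytes use, TBX21, CD244, CTSW, GZMA, GZMB, PRF1, NKG7 and GNLY, were read in 2 T-cell acute lymphoblastic leukaemia (T-ALL) cell lines with and without knockdown of LDB1. They are 9 of the 64252 genes in each deposited count table, were found by symbol, and each was present in both tables. The genes were chosen by their role in killer cells and by their counts and knockdown changes in these same libraries, so these values are given as a description with standard errors and without p-values.

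Natural killer (NK) cells and CD8+ T cells kill by releasing granules that hold the pore former perforin, serine proteases called granzymes and the membrane-active peptide granulysin. Eomesodermin and T-bet, the T-box transcription factors encoded by EOMES and TBX21, direct much of this programme, and receptors such as CD244 (2B4, of the SLAM family) tune it. LDB1 is an adaptor that joins LIM-domain proteins and brings enhancers and promoters together.

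The study asked what LDB1 does in T-ALL cells. 6T-CEM derives from the CCRF-CEM line, and J.gamma1 is a Jurkat derivative that lacks phospholipase C gamma 1, an enzyme of T-cell receptor signalling. Each line carried either a control hairpin (sh-NC, labelled shControl) or a hairpin against LDB1 (sh-LDB1), delivered by lentivirus from pLKO.1 with puromycin selection. Total RNA of 2 libraries per group, 8 in all, was sequenced. No untransduced cells were analysed here, which of the hairpins was used is not given in the sources used here, and nothing says that the libraries of a group came from separate cultures, so standard errors and p-values measure only the spread between libraries. Each line is a population of leukaemic cells in culture. In such bulk RNA, more cells with a transcript and more transcript per cell cannot be told apart.

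The total count per library lay between 26160492 and 30604977, and libraries of a group correlated at a Pearson r of 0.987 to 0.990 across genes. LDB1 itself was at 2777 and 2996 counts in the 6T-CEM controls and at 1078 and 1000 after knockdown, and its log2 fold change was -1.60 (SE 0.0709, n = 2 libraries per group). In J.gamma1 it was at 1909 and 1854 counts against 929 and 906 (log2 fold change -0.89, SE 0.0751). The knockdown was therefore deeper in 6T-CEM, by 0.70 on the log2 scale (SE 0.0946), and the part of this gap in any difference between the lines below was not tested. All 9 T-lineage markers, among them CD3E, CD2 and LCK, were above 3 counts in every library of each group. Of 9 NK-cell markers, KLRF1, NCR1, FCGR3A, KIR2DL1 and KIR2DL3 were at 0 in all 4 groups. In both libraries of J.gamma1 sh-LDB1, 2 of the 9 were above 3 counts, and 1 was in each other group.

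The region just upstream of a gene's start is where many of its regulators bind, and 8 of the 9 genes had such a region of 250 bases in the RefSeq promoter table (GRCh38.p14). Short motifs were searched on both strands. The T-box core TCACAC occurred in 9.9% of 35116 promoters of this length, the GATA letters AGATAA in 9.17% and the RUNX letters TGTGGT in 11% of them. The ETS core GGAAG was found in 65.1% of promoters, and the MYB letters AACNG in 70.6%. Of the E-box forms, CAGCTG was present in 14% of promoters, whereas the form CAGGTG was present in 17.5%. No match was left out for overlapping that of another motif. EOMES and CD244 are shown because they moved in opposite directions in the lines, NKG7 and GZMA because each moved the same way in both. Capitals mark matches to the T-box, GATA, RUNX and ETS letters. For CD244, NKG7 and GZMA the bases outside annotated exons of the gene are printed, and for EOMES, whose region lies within an exon of a longer annotated transcript, a stretch of 29 bases.
EOMES, chr3:27722380-27722408, minus strand: GGAAGgGGAAGttacCTTCCcctcGGAAG
CD244, chr1:160862888-160863137, minus strand: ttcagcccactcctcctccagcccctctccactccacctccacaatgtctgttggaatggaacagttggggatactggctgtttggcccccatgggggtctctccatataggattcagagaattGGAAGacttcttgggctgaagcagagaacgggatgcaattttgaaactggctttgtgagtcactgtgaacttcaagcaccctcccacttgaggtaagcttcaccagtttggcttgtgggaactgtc
NKG7, chr19:51372702-51372904, minus strand: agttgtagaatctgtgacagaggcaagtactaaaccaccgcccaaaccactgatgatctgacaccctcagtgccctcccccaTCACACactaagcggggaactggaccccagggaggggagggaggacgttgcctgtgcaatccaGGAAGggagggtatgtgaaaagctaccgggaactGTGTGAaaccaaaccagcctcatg
GZMA, chr5:55102396-55102645, plus strand: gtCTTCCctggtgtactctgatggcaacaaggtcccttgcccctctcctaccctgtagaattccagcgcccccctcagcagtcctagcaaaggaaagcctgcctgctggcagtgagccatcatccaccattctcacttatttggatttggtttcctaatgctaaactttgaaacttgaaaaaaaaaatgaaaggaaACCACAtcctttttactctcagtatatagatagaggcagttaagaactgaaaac

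The EOMES region of 250 bases held 7 ETS matches, 4 of them in the stretch shown, and 1 CAGGTG. Only 0.14% of promoters held at least 7 ETS matches. The NKG7 region held 2 T-box matches, as did 0.814% of promoters with at least that number, and 1 ETS match. CD244 had 1 ETS and 8 MYB matches, and GZMA had 1 RUNX, 1 ETS and 2 MYB matches. The NKG7 region also held 4 MYB matches and that of EOMES 0. The share of promoters with as many as 8 MYB matches was not counted, so nothing is read from that number. No AGATAA was found upstream of the 8 genes. EOMES and CD244 had only the common ETS core in both regions. A match is only a run of letters, and binding was not measured here.

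The knockdown moved 5 of the 9 genes past both thresholds in each line (adjusted p under 0.05 in edgeR's quasi-likelihood test and a log2 fold change beyond 1). In 6T-CEM, 6 were expressed highly enough to be tested, of which 4 fell, 1 rose and 1 did not pass. Over all 16059 genes tested in that line, 5.13% passed. In J.gamma1, 7 were tested, of which 4 rose and 1 fell past both thresholds, 1 rose by adjusted p alone and 1 did not pass, and 13.9% of 17215 genes passed. Since these contrasts chose the list, nothing is read from the counts. EOMES, CD244 and CTSW fell in 6T-CEM and rose in J.gamma1, NKG7 rose in both, GZMA fell in both, and GZMB and GNLY were too low to test in either line.

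**Figure D1:**
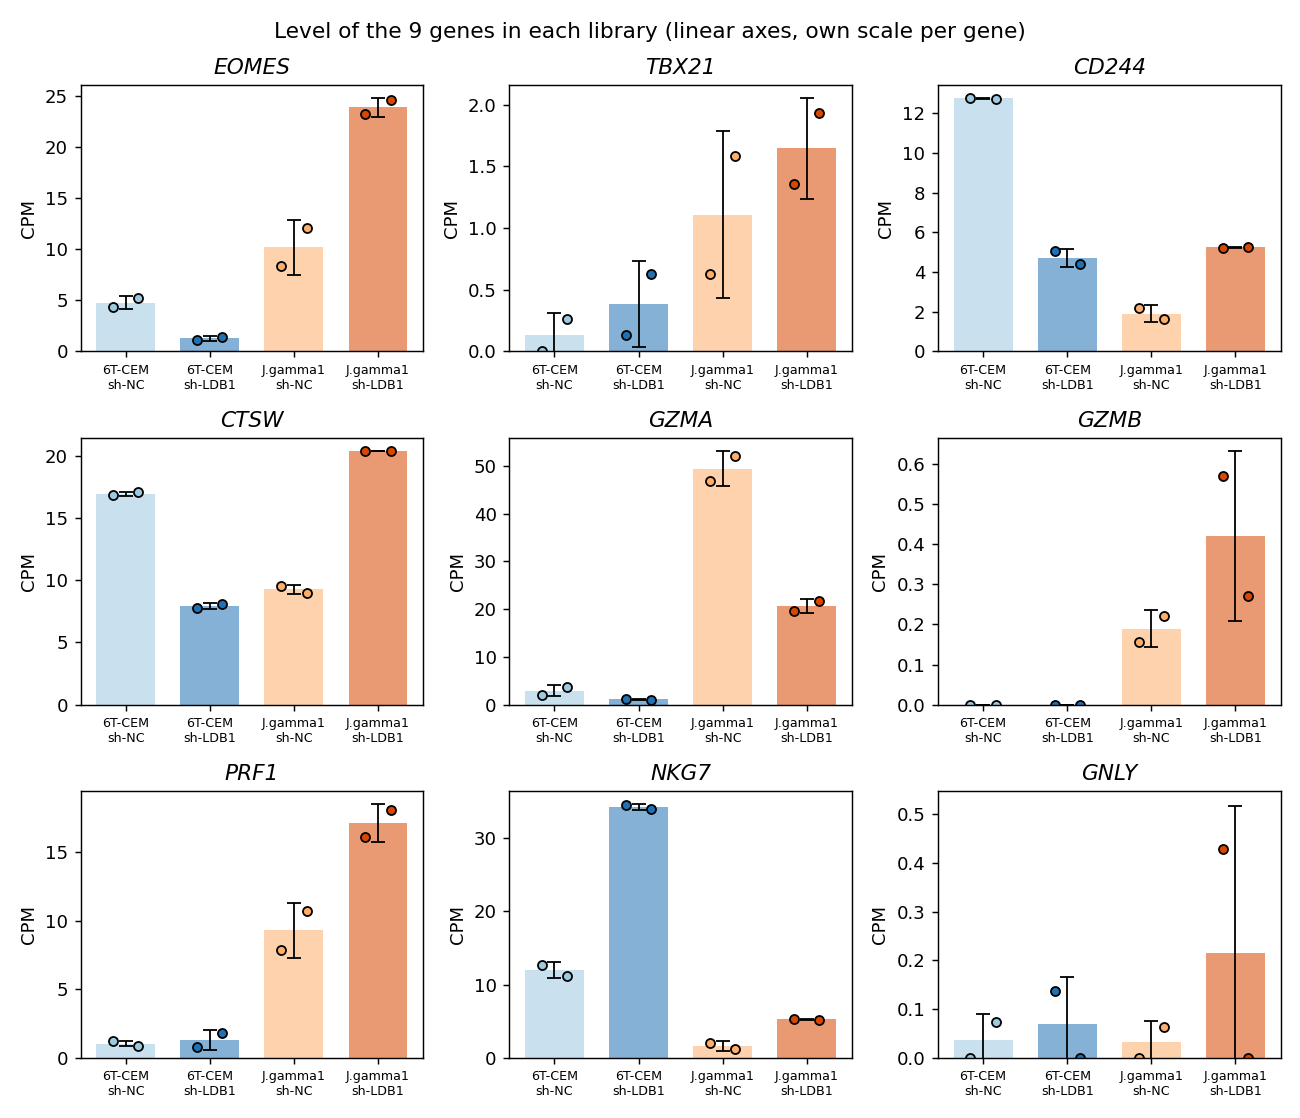
Level of each of the 9 genes in CPM (vertical axis, linear from 0, own scale per gene) in the 4 groups, with points for the 2 libraries, bars for their mean and error bars of 1 SD. EOMES, CD244 and CTSW step down in 6T-CEM and up in J.gamma1, while NKG7 steps up and GZMA down in both.

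EOMES encodes eomesodermin, a T-box factor of NK cells and of effector and memory CD8+ T cells. The gene (ENSG00000163508) lies at chr3:27715949-27722711 on the minus strand of GRCh38. In 6T-CEM it had 112 and 142 counts in sh-NC and 33 and 41 in sh-LDB1, or, as CPM (counts scaled to a common library total), 4.79 CPM ± 0.678 against 1.28 ± 0.213 (SD, n = 2). The groups did not overlap, and the knockdown cells kept 26.8% of the control level. This was a log2 fold change of -1.89 (SE 0.271), or 3.72-fold lower.

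In J.gamma1 EOMES started higher and went up. It had 264 and 382 counts in sh-NC and 651 and 724 in sh-LDB1, or 10.2 CPM ± 2.68 against 23.9 ± 0.931 (SD, n = 2), again without overlap. The log2 fold change was 1.23 (SE 0.162), or 2.35-fold higher, and the change in J.gamma1 exceeded that in 6T-CEM by 3.13 on the log2 scale (SE 0.302). The gap between the lines was wider after knockdown: J.gamma1 had 2.13 times the EOMES level of 6T-CEM among the sh-NC libraries and 18.6 times among the sh-LDB1 libraries.

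TBX21 encodes T-bet, the other T-box factor of cytotoxic and type 1 lymphocytes (ENSG00000073861, chr17:47733236-47746122, plus strand). It was near the limit of detection in 6T-CEM, with 0 and 7 counts in sh-NC and 4 and 18 in sh-LDB1, and was not tested there. In J.gamma1 it had 20 and 50 counts in sh-NC and 38 and 57 in sh-LDB1. These groups overlapped, and the log2 fold change of 0.58 (SE 0.445) did not pass. Without sh-NC replicate 2, the higher control, the log2 value was 1.38. Whether TBX21 moved oppositely in the lines, as EOMES did, could not be seen at this depth.

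CD244 encodes the receptor 2B4, which binds CD48 and signals through SLAM-associated adaptors (ENSG00000122223, chr1:160830160-160862887, minus strand). The 6T-CEM controls held 332 and 343 counts of it and the knockdown libraries 147 and 126, or 12.7 CPM ± 0.0350 against 4.72 ± 0.450 (SD, n = 2). With a log2 fold change of -1.43 (SE 0.168), the groups were far apart relative to their spread. In J.gamma1 the counts were 70 and 51 in sh-NC and 146 and 155 in sh-LDB1, or 1.91 CPM ± 0.416 against 5.24 ± 0.0320. Here the log2 fold change was 1.46 (SE 0.242), nearly the mirror image, and the difference between the lines' changes was 2.88 (SE 0.282).

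The control level of CD244 was 6.67 times higher in 6T-CEM than in J.gamma1. After knockdown the lines nearly met, at 5.04 and 4.40 CPM in the 6T-CEM libraries and 5.21 and 5.26 CPM in those of J.gamma1. EOMES and CD244 therefore shared the directions of change but not their outcome, since the lines moved apart in EOMES and together in CD244.

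CTSW encodes cathepsin W, a cysteine protease found mainly in NK and cytotoxic T cells (ENSG00000172543, chr11:65879809-65883741, plus strand). In 6T-CEM its counts were 437 and 460 in sh-NC and 226 and 232 in sh-LDB1, or 16.9 CPM ± 0.177 against 7.93 ± 0.255 (SD, n = 2). It fell to 46.8% of control (log2 fold change -1.09, SE 0.140). In J.gamma1 the counts were 302 and 284 against 571 and 601, and the level rose from 9.25 CPM ± 0.361 to 20.4 CPM in both sh-LDB1 libraries. Its log2 fold change there was 1.15 (SE 0.115) and the difference between the lines' changes was 2.23 (SE 0.169). The lines exchanged places: 6T-CEM had 1.83 times the level of J.gamma1 before knockdown, and J.gamma1 had 2.57 times that of 6T-CEM after it. CTSW shares 2 exon bases with FIBP on the opposite strand, whose counts stayed between 1907 and 2162 in the 8 libraries.

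Among 14902 genes that both fits tested, 15 (0.101%) went past both limits in each line with opposite signs, and EOMES, CD244 and CTSW were 3 of them. These 3 were chosen with their changes known, so their place among the 15 is only a description. Genes that fell in 6T-CEM and rose in J.gamma1 made up 8 of the 15. By adjusted p alone, 3.34% of these genes moved oppositely and 1.76% did so in this direction. Closest to the limit on size were CTSW in 6T-CEM, just beyond it at -1.09, and PRF1 in J.gamma1, just short of it at 0.89.

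**Figure D2:**
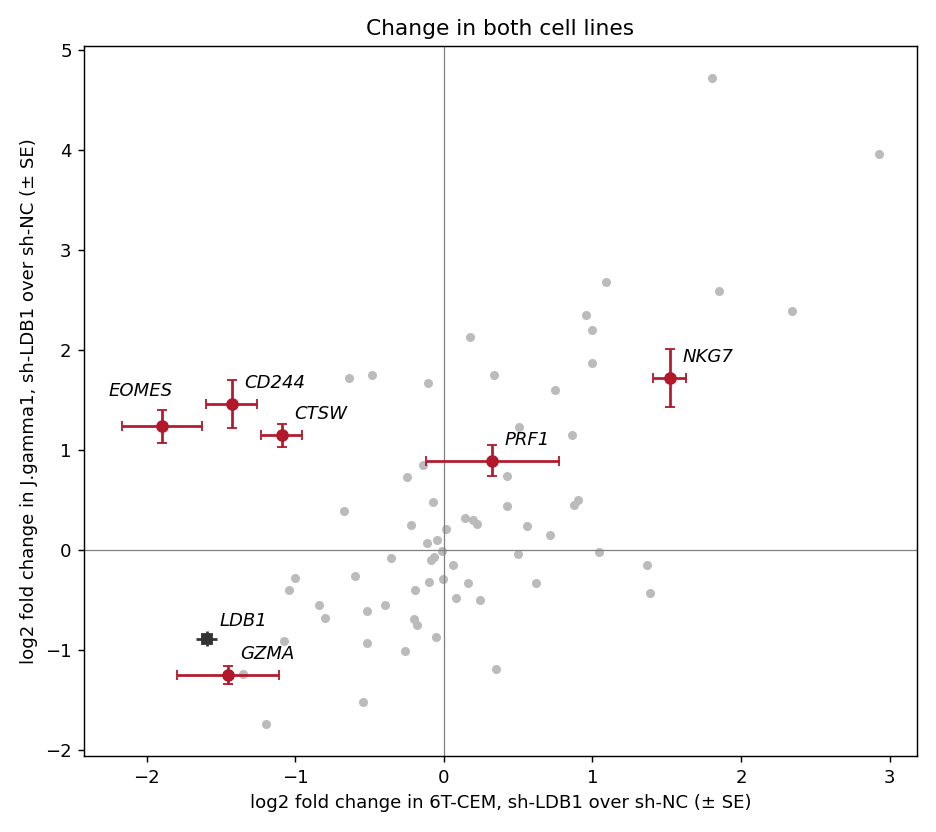
The log2 fold change of sh-LDB1 over sh-NC in 6T-CEM (horizontal) and in J.gamma1 (vertical) for the 6 genes tested in both lines (red, ± SE), LDB1 (black square) and 66 other genes of cytotoxic and NK cells (grey, ZNF683 left out). EOMES, CD244 and CTSW lie at the upper left, NKG7 at the upper right and GZMA at the lower left beside LDB1.

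GZMA encodes granzyme A, a tryptase of cytotoxic granules (ENSG00000145649, chr5:55102646-55110252, plus strand), and of the 7 genes tested it differed most between the control libraries of the lines. Its counts in J.gamma1 were 1487 and 1644 in sh-NC and 549 and 639 in sh-LDB1, or 49.5 CPM ± 3.73 against 20.6 ± 1.47 (SD, n = 2). It kept 41.7% of its control level (log2 fold change -1.25, SE 0.0874) in the line in which EOMES rose. In 6T-CEM the counts were 55 and 102 in sh-NC and 32 and 30 in sh-LDB1, with a log2 fold change of -1.45 (SE 0.345). The groups did not overlap, but the 6T-CEM value rested on 1 control library: without sh-NC replicate 2 it was -0.97, short of the limit on size. The difference between the lines' changes was 0.20 (SE 0.311), less than its error. The control level was 16.8 times higher in J.gamma1.

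PRF1 encodes perforin, the pore former through which granzymes reach the target cell (ENSG00000180644, chr10:70597348-70602759, minus strand). It was low in 6T-CEM, at 31 and 24 counts in sh-NC and 23 and 52 in sh-LDB1. These groups overlapped, and their log2 fold change of 0.33 (SE 0.445) turned to -0.40 without sh-LDB1 replicate 2. In J.gamma1 the counts were 250 and 338 in sh-NC and 452 and 534 in sh-LDB1, or 9.29 CPM ± 2.01 against 17.1 ± 1.40 (SD, n = 2). The groups did not overlap and the log2 fold change was 0.89 (SE 0.156), a rise of 1.85-fold that passed by adjusted p and not by size. Without sh-NC replicate 2 it was 1.12, beyond the limit on size. PRF1 shares 197 exon bases with PALD1 on the opposite strand, and the strand setting of the counting is not given in the sources used here. PALD1 had 314 and 337 counts in J.gamma1 sh-NC and 412 and 471 in sh-LDB1, so it was also higher, and its part in the PRF1 value was not tested.

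NKG7 encodes a membrane protein of cytotoxic granules that helps them to release their content (ENSG00000105374, chr19:51371606-51372701, minus strand). In 6T-CEM its counts were 331 and 302 in sh-NC and 1007 and 970 in sh-LDB1, or 12.0 CPM ± 1.08 against 34.2 ± 0.438 (SD, n = 2), and the log2 fold change was 1.52 (SE 0.110). In J.gamma1 they were 65 and 36 against 149 and 152, or 1.59 CPM ± 0.641 against 5.24 ± 0.116, with a log2 fold change of 1.72 (SE 0.289). The groups did not overlap in either line, and the changes differed by 0.20 (SE 0.275). NKG7 rose about alike in both lines from control levels that were 7.51 times higher in 6T-CEM, so the ratio of 6T-CEM to J.gamma1 after knockdown was 6.53.

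GZMB and GNLY, 2 leading effector genes of mature killer cells, were nearly silent. GZMB, which encodes granzyme B (ENSG00000100453, chr14:24630954-24634267, minus strand), had 0 counts in the 4 libraries of 6T-CEM. A count of 0 allows up to 3 counts, or 0.103 to 0.115 CPM in these libraries, for counting error only. In J.gamma1 it had 5 and 7 counts in sh-NC and 16 and 8 in sh-LDB1. Its neighbour and paralog GZMH was likewise at 0 in 6T-CEM, with 49 and 27 counts in J.gamma1 sh-NC and 44 and 59 in sh-LDB1, and how reads that match both were counted is not given in the sources used here. GNLY, which encodes granulysin (ENSG00000115523, chr2:85685175-85698852, plus strand), had 0, 2, 4 and 0 counts in the 6T-CEM libraries and 0, 2, 12 and 0 in those of J.gamma1, sh-NC first. Neither gene gave a change that could be measured at this depth.

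To compare genes with each other, levels were divided by the length of the annotated exons (CPM per kb). Among the 6T-CEM sh-NC libraries the order was NKG7 (13.0), CTSW (9.36), CD244 (4.41), GZMA (3.29), EOMES (1.31), PRF1 (0.414), TBX21 (0.0495), GNLY (0.0122) and GZMB (0). The first 6 stood apart from the next gene in both libraries, while TBX21 overlapped GNLY and GNLY overlapped GZMB. In J.gamma1 sh-NC the order was GZMA (55.2), CTSW (5.12), PRF1 (3.69), EOMES (2.79), NKG7 (1.73), CD244 (0.661), TBX21 (0.422), GZMB (0.135) and GNLY (0.0104). Here PRF1 overlapped EOMES, CD244 overlapped TBX21, and the other neighbours stood apart. The leading gene was NKG7 in 6T-CEM and GZMA in J.gamma1, in the control and in the knockdown libraries alike.

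**Figure D3:**
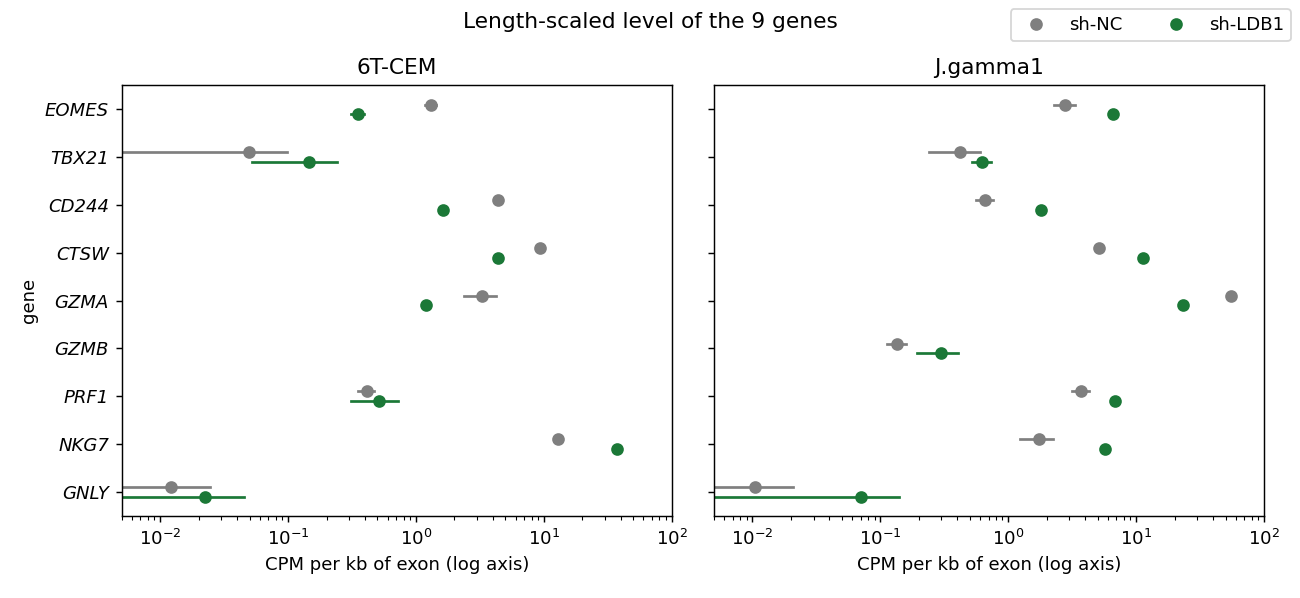
Mean CPM per kb of annotated exon (horizontal, log axis) of each gene in sh-NC (grey) and sh-LDB1 (green), with lines from the lower to the higher of the 2 libraries. Lines that reach the left edge include a library at 0, and GZMB is not drawn in 6T-CEM, where it was at 0. NKG7 leads in 6T-CEM and GZMA in J.gamma1, with and without the knockdown.

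Knockdown changed this order little. In 6T-CEM sh-LDB1 EOMES, at 0.351 CPM per kb, dropped behind PRF1 at 0.517, with overlapping ranges, and NKG7 rose to 37.1. In J.gamma1 sh-LDB1 the order of all 9 genes was the same as in the control, from GZMA at 23.0 to GNLY at 0.0703, with PRF1 (6.80), EOMES (6.54) and NKG7 (5.69) close together. The sh-NC libraries of the lines differed by more than 1 on the log2 scale, at an adjusted p under 0.05, for 6 of the 7 genes tested and for 32.4% of 18552 genes. EOMES, TBX21, GZMA and PRF1 were the 4 higher in J.gamma1 (19.1% of all genes), and CD244 and NKG7 the 2 higher in 6T-CEM (13.3%). For TBX21 this rested on 0 and 7 counts in 6T-CEM and 20 and 50 in J.gamma1. The genes were chosen partly by their counts in these same libraries, so nothing is read from these tallies. The cell line cannot be told apart from its separately deposited table.

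When any 1 library was dropped, the opposite changes of EOMES, CD244 and CTSW kept their directions. EOMES then spanned log2 fold changes of -2.08 to -1.73 in 6T-CEM, and 0.99 to 1.52 in J.gamma1, where it fell just short of the limit on size without sh-NC replicate 1. That of CD244 spanned -1.52 to -1.34 in the first line and 1.25 to 1.70 in the second, and that of CTSW -1.13 to -1.05 and 1.10 to 1.19. NKG7 lay within 1.43 to 1.62 in 6T-CEM, and within 1.35 to 2.20 in J.gamma1.

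EOMES and CD244 were also set beside the genes around them, within 500 kb, a comparison by position added after the values were seen. Near EOMES, the 6T-CEM fit tested 3 genes and the J.gamma1 fit 2. SLC4A7, a bicarbonate transporter gene 232 kb away, fell by 0.54 on the log2 scale in 6T-CEM (SE 0.0906, adjusted p = 0.000387, edgeR) and by 1.28 in J.gamma1 (SE 0.0624, adjusted p = 6.11e-08). NEK10, a kinase gene 346 kb away, had -0.70 in 6T-CEM (SE 0.419, adjusted p = 0.232) and fell by 1.86 on the log2 scale in J.gamma1 (SE 0.326, adjusted p = 0.00313). LINC01980, 75 kb away, was tested only in 6T-CEM and had -0.71 (SE 0.515, adjusted p = 0.33, edgeR). In 6T-CEM all 3 values were thus below 0, as was that of EOMES, and SLC4A7 alone passed by adjusted p. In J.gamma1 both tested neighbours fell where EOMES rose. Around CD244, which lies among other SLAM family genes, the 6T-CEM fit tested 24 genes, of which 2 rose and 1 fell past both thresholds. In J.gamma1 it was 29 genes, of which 3 rose and 4 fell. Their median log2 fold changes were -0.02 in 6T-CEM, where CD244 had -1.43, and -0.04 in J.gamma1, where it had 1.46.

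The 5 genes whose level was most like that of EOMES across the 8 libraries, among 11757 genes averaging 100 counts or more, were E2F5 (Pearson r = 0.995), ETS2 (0.984), MT2A (0.982), TM7SF2 (0.981) and PRDX3 (0.980). The 8 libraries form 4 groups in 2 lines, so the likeness mostly states that a gene was lower in 6T-CEM and moved down there and up in J.gamma1. Their changes were smaller than those of EOMES. E2F5, an E2F-family cell-cycle factor, had log2 fold changes of -0.48 in 6T-CEM (SE 0.123) and 0.31 in J.gamma1 (SE 0.0915). MT2A, a metallothionein, had -0.64 (SE 0.184) and 0.54 (SE 0.133). Both were picked for this pattern in the same libraries, so no p-values are given. CD244 and CTSW, which began higher in 6T-CEM, were not among these 5.

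A wider view came from 125 other genes of cytotoxic and NK cells in 8 lists. In 6T-CEM, 76 were tested, of which 10 rose and 5 fell past both thresholds, with a median log2 fold change of 0.04 against 0.00 for all genes. In J.gamma1, 79 were tested, of which 20 rose and 7 fell, with a median of 0.10 against 0.00 for all genes. The shares that rose are to be read against 2.74% of all genes for 6T-CEM, 6.67% for J.gamma1, and those that fell against 2.39% and 7.19%. Opposite movement like that of EOMES was seen by adjusted p in 6 of the 67 genes tested in both lines (8.96%), named after their values were seen: UNC13D, INPP5D and IL21R fell in 6T-CEM and rose in J.gamma1, and TCF7, BACH2 and BCL6 did the reverse. Over all genes tested in both lines this share was 3.34%. Of these 6, none went past both limits in each line. EOMES, CD244 and CTSW did, but they were chosen with their changes known, so nothing is read from this.

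Transcription factors that accompany EOMES and TBX21 in lymphocytes moved in both directions. In 6T-CEM, 5 rose and 2 fell of 15 tested, and in J.gamma1, 6 rose and 4 fell of 18. ID2, an inhibitor of E proteins needed for NK cells, rose by 1.85 in 6T-CEM (SE 0.268, adjusted p = 0.000108, edgeR) and 2.59 in J.gamma1 (SE 0.127, adjusted p = 6.53e-08) on the log2 scale. IRF8, an interferon regulatory factor, rose by 2.35 and 2.38, while IKZF2, which encodes Helios, fell by 1.20 and 1.74. ZNF683, which encodes the tissue-residency factor Hobit, rose in 6T-CEM by 1.27 (SE 0.207, adjusted p = 0.000297, edgeR). In J.gamma1 ZNF683 went from 0 counts in both sh-NC libraries to 39 and 49, at least 16.1-fold higher against a floor of 3 counts per library. RUNX3 fell past both thresholds in 6T-CEM (-1.04) and by adjusted p alone in J.gamma1 (-0.40), and TOX2 (-1.34) and KLF2 (-1.19) fell in J.gamma1, where EOMES rose. Of the other T-box genes, TBX15 passed upward in both lines, from 0 and 9 counts to 46 and 30 in 6T-CEM and from 0 and 4 to 20 and 40 in J.gamma1, and TBX10 in 6T-CEM, from 6 and 7 to 32 and 42.

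Some genes of other granule proteins, granzymes and their inhibitors rose in J.gamma1, as PRF1 and NKG7 did, while GZMA fell. There, 3 of 9 tested rose past both thresholds and none fell. They were CST7, an inhibitor of granule cathepsins (2.13, SE 0.195), SERPINB9, the inhibitor of granzyme B (1.66, SE 0.184), and SRGN, the proteoglycan that packs granules (1.15, SE 0.110). In 6T-CEM, 0 of 8 passed both thresholds by edgeR and 0 by DESeq2, and 5 had an unadjusted p under 0.05 by edgeR, as had 40.8% of all genes in that line. By adjusted p, 2 of the 8 rose there and 1 fell, all short of the limit on size. SRGN was among the 2 that rose (0.86, SE 0.0951). The 1 that fell was SERPINB1, named after its values were seen (-0.91, SE 0.0743). The change differed between the lines for CST7 (adjusted p = 0.00229, edgeR) and SERPINB9 (adjusted p = 0.00183) and did not pass that test for SRGN (adjusted p = 0.199). The machinery that releases granules had 0 genes past both thresholds by edgeR and by DESeq2 in either line. Of 12 tested in 6T-CEM, 7 had an unadjusted p under 0.05 by edgeR, as had 8 of 13 in J.gamma1, where 57.1% of all genes did. Among cytokine receptors, 5 of 11 rose in J.gamma1, with IL2RB (2.35), IL12RB1 (2.20) and IL7R (1.75) foremost, and 0 of 10 passed both thresholds in 6T-CEM by edgeR and by DESeq2, with 6 at an unadjusted p under 0.05 by edgeR. IL12RB1 (0.998) and IL2RB (0.955) also rose by adjusted p in 6T-CEM, just under the limit on size, and IL7R rose there by adjusted p alone. The list went both ways, since by adjusted p alone 4 of the 11 fell in J.gamma1. In 6T-CEM 3 of the 10 rose and 3 fell by adjusted p, with a median log2 fold change of -0.28. The difference between the lines passed for IL2RB (adjusted p = 0.0365, edgeR) and IL7R (adjusted p = 4.66e-06) and not for IL12RB1 (adjusted p = 0.132).

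The SLAM family, to which CD244 belongs, was split. In 6T-CEM SLAMF8 (1.81) and SLAMF6 (1.05) rose and CD84 (-1.35) fell of 10 tested. In J.gamma1 SLAMF8 (4.72) and LY9 (1.60) rose and CD84 (-1.25) fell of 12, as did SLAMF7, named after its values were seen, from 15 and 17 counts to 2 and 0. LY9 also rose in 6T-CEM by adjusted p alone (0.75). No SLAM gene other than CD244, which was chosen with its changes known, fell in 6T-CEM and rose in J.gamma1 past both thresholds. Of the NK receptors, NCR3 fell in 6T-CEM (-1.11), and KLRG1 rose (1.87) and CD226 fell (-1.53) in J.gamma1. By adjusted p alone, KLRG1 also rose and CD226 also fell in 6T-CEM. KLRD1 went in J.gamma1 from 0 counts in both control libraries to 25 and 21, at least 8.47-fold higher against 3 counts. The list of death ligands and cytokines had LTB, a lymphotoxin gene, higher in both lines (1.09 and 2.68). TNFSF10, which encodes the death ligand TRAIL, was lower in 6T-CEM (-1.08) and, by adjusted p alone, in J.gamma1 (-0.92).

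**Figure D4:**
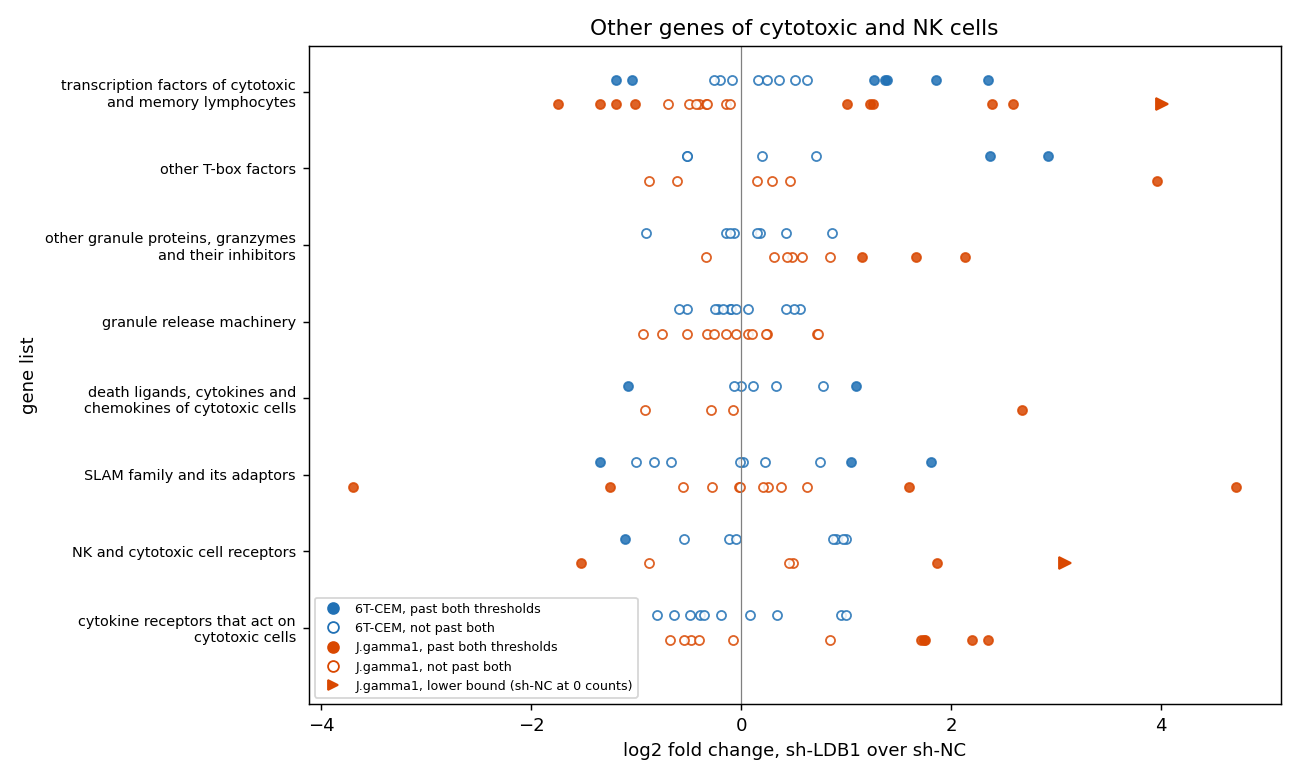
The log2 fold change of sh-LDB1 over sh-NC (horizontal) of the tested genes of 8 lists (vertical) in 6T-CEM (blue) and J.gamma1 (orange), filled where the gene passed both thresholds. Triangles are lower bounds for ZNF683 and KLRD1, which were at 0 in the J.gamma1 control. The lists spread to both sides of 0. The list of granule proteins, granzymes and their inhibitors and that of cytokine receptors have filled points on the right in J.gamma1.

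Markers of cell types were read beside these changes. The 2 CD8 genes, CD8A and CD8B, summed to 33.9 to 37.4 CPM in 6T-CEM sh-NC and 43.4 to 48.9 in sh-LDB1, and to 2.50 to 2.58 CPM in J.gamma1 sh-NC and 8.55 to 9.46 in sh-LDB1. CD8A rose in J.gamma1 by 2.25 on the log2 scale (SE 0.230, adjusted p = 1.49e-05, edgeR). In the same libraries EOMES, PRF1 and NKG7 were higher and GZMA was lower. The 9 NK markers summed to 0.308 to 0.408 and 0.686 to 0.874 CPM in 6T-CEM, and to 2.28 to 2.65 and 2.48 to 3.18 CPM in J.gamma1, sh-NC first. T-lineage markers summed to 1777 to 1865 CPM in 6T-CEM sh-NC and 2329 to 2338 in sh-LDB1, and to 2311 in both J.gamma1 sh-NC libraries and 3152 to 3153 in sh-LDB1. The 4 myeloid markers summed to 0.252 to 2.71 CPM over the libraries, and MPO among them went from 9 and 8 counts in 6T-CEM sh-NC to 38 and 32 in sh-LDB1 and passed both thresholds. The 3 erythroid markers summed to 0 to 0.630 CPM. The part of these shifts in the changes of EOMES and the granule genes was not tested.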

How the data were processed

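RNA-seq of 8 libraries in 4 groups of 2 was analysed. Per the labels, the authors used HISAT2 2.2.0 to align reads (hg38) and StringTie to quantify genes, and they deposited whole-number counts per gene without normalization, in 1 table per cell line of 64252 genes. How the counts were derived from StringTie, the annotation release and the strand setting are not given in the sources used here, so overlapping genes and paralogs are uncertain. Symbols, exons and coordinates came from GENCODE release 44 (GRCh38), and upstream sequences from RefSeq (GRCh38.p14).

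Each line was fitted by itself with edgeR 4.0.16 in R 4.3.3 (TMM, filterByExpr, robust quasi-likelihood test, Benjamini-Hochberg adjustment over all genes tested). Genes passed with a log2 fold change beyond 1 and an adjusted p below 0.05. The authors used DESeq2 within a line, which was an alternative here (version 1.42.0). Differences between the lines were contrasts in 1 fit to all 8 libraries. CPM values use TMM-scaled totals over the 8 libraries, which lay between 26160492 and 30604977 counts. Standard errors come from the fold change and the F statistic. The steps were tested on simulated data.

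The members, lists and tests were chosen with earlier results of these data known. Named are the 9 members, LDB1, up to 3 genes per list, line and direction with the largest change past both thresholds and a mean of at least 20 counts, the 5 genes most like EOMES (log2 CPM with a prior count of 2), and cell type markers. Exceptions are marked in the text. Alternatives were DESeq2, its size factors in edgeR, no filter on low counts, a minimum of 10 counts in at least 2 libraries, the replicate number as a block, the adjusted p alone, 1 fit to all 8 libraries, and leaving out each library. Figures were drawn with matplotlib. A marker list is not reported here.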

Additional observations from a re-analysis of the deposited data

Results flagged for a closer look

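The change in J.gamma1 minus the change in 6T-CEM, on the log2 scale, was taken from an interaction term in edgeR over all 8 libraries. For EOMES it was 3.13, for CD244 2.88 and for CTSW 2.23, given as a description because these genes were chosen with both changes known. LDB1 itself differed by 0.70 (SE 0.0946, adjusted p = 0.000237, edgeR), its fold reduction being smaller in J.gamma1. The level left was 32.0 CPM there and 36.0 CPM in 6T-CEM. Over all 18552 genes tested, 24.4% passed this test at an adjusted p under 0.05.

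Of the 88 other cytotoxic and NK genes tested, 32 passed it, 15 with a higher and 17 with a lower value in J.gamma1. Among those named, the difference was above 0 for IL7R at 1.41, CST7 at 1.95, SERPINB9 at 1.77, LTB at 1.58, IL2RB at 1.39, IL21R at 2.23, INPP5D at 1.05, UNC13D at 0.46 and RUNX3 at 0.63, which fell in both lines and less in J.gamma1. ZNF683 came to 7.21, a fitted value that depends on the prior count since its J.gamma1 control was at 0. It was below 0 for BCL6 at -1.82, TCF7 at -0.49, BACH2 at -0.74, TOX2 at -3.55, KLF2 at -1.55, SLAMF6 at -1.07 and CD226 at -0.99. TOX2 was too low to be tested within 6T-CEM. The genes most like EOMES in level passed too, with E2F5 at 0.79, ETS2 at 0.61, MT2A at 1.17, TM7SF2 at 0.94 and PRDX3 at 0.49, after being picked for that pattern. The CD8 genes differed too, CD8A at 1.80 and CD8B at 1.29, as did SLC4A7, beside EOMES, at -0.75. With 2 libraries per group, no library could be set apart as far from the others.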

How the results depend on the processing

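EOMES, CD244, CTSW and NKG7 kept their direction in both lines under every alternative, and CD244, CTSW and NKG7 stayed past the limit on size. EOMES in J.gamma1 was at 0.99, short of that limit, without sh-NC replicate 1, where 4 members passed. Without sh-NC replicate 2 of J.gamma1, 7 members passed, with TBX21 at 1.38 and PRF1 at 1.12. GZMA in 6T-CEM was at -0.97 without sh-NC replicate 2. PRF1 in 6T-CEM spanned -0.40 (without sh-LDB1 replicate 2) to 0.81. Without 6T-CEM sh-NC replicate 2, the 6T-CEM control that was left had 0 counts of TBX21, so its fitted values depend on the prior count. The difference between the lines' changes was -0.93 for TBX21 and spanned -5.92, without that library, to 0.52 over the libraries left out. It was above 0 without 6T-CEM sh-NC replicate 1 (0.031) and without 6T-CEM sh-LDB1 replicate 2. For GZMA it spanned -0.28 (without 6T-CEM sh-NC replicate 2) to 0.56, and for NKG7 -0.17 (without J.gamma1 sh-NC replicate 2) to 0.68. For PRF1 it was 1.29 without 6T-CEM sh-LDB1 replicate 2. The TBX21 difference between the sh-NC libraries was 3.03 with all libraries, so its size depended on single libraries. It was 2.06 without 6T-CEM sh-NC replicate 1 and 2.23 without J.gamma1 sh-NC replicate 2. Without 6T-CEM sh-NC replicate 2 it was 8.02, a value that depends on the prior count. In 6T-CEM 824 genes passed by edgeR and 509 by DESeq2, the cause of which was not tested. The adjusted p alone, which drops the limit on size, gave 5023 genes for 6T-CEM, 8870 for J.gamma1 (against 2386), and 44 and 56 of the other cytotoxic and NK genes (against 15 and 27).

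Same-numbered libraries did not deviate together across the genes tested (correlation -0.0177 for 6T-CEM, -0.0355 for J.gamma1). The labels give them only a shared number, and whether they shared a culture or preparation was not tested. With the replicate number as a block 801 genes passed for 6T-CEM, 2240 for J.gamma1, with 5 of the 9 members in each. With 2 libraries per group, genes under about 10 counts per library, here GZMB and GNLY, could not be tested.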
